A study of Mus musculus with 6 samples.

Results

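The TGF-β ligands (Tgfb1, Tgfb2, Tgfb3), their receptors (Tgfbr1, Tgfbr2, Tgfbr3) and the latent TGF-β binding proteins (Ltbp1, Ltbp2, Ltbp3, Ltbp4) were compared between sorted fractions of an axitinib-resistant breast cancer cell line. These 10 genes were chosen by gene family name, with earlier results of the same comparison known, out of 53465 genes in the deposited table. All 10 passed the filter on low counts, as did 14038 genes in all. RNA-seq of polyadenylated RNA was made from 4T1, a mouse mammary carcinoma cell line, in 6 libraries. SM positive libraries (3) came from cells with a high signal of C12FDG, a fluorescent substrate of senescence-associated β-galactosidase. SM negative libraries (3) came from the low-signal cells of the same resistant population. Both fractions share the same history: they arose in mice from lesions after surgery, under axitinib, which blocks VEGF receptor signalling, at 100 mg/kg/day. The cells were then grown in 0.5 µM axitinib for over 2 months. Cells without axitinib are not analysed here, and the labels do not say whether replicates came from separate sorts or cultures.

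TGF-β is secreted as a latent complex in which the cleaved propeptide still wraps the ligand, and a latent binding protein ties most such complexes to the extracellular matrix. Integrins, proteases and thrombospondin release the ligand, which binds the type II receptor, and this kinase activates the type I receptor. The type I receptor then phosphorylates SMAD2 and SMAD3, which enter the nucleus with SMAD4. In mammary carcinoma the pathway is known for growth arrest in early lesions and for epithelial-mesenchymal transition and spread in later ones, and in senescent cells it is known as part of the secretome.

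Total counts were 19691341 to 26533463 in SM positive libraries and 18733750 to 25302135 in SM negative ones. Levels are given as CPM, counts scaled to a common library total (TMM), and 3 counts equalled 0.113 to 0.16 CPM depending on the library. The keratin genes Krt7, Krt8 and Krt18 were abundant, Krt5 had no count in any library, and the 10 epithelial markers summed to 3319 to 3674 CPM in SM positive and 3679 to 3837 CPM in SM negative libraries. The 10 fibroblast markers summed to 4.81 to 6.99 CPM in SM positive and 3.60 to 4.34 CPM in SM negative libraries. Pdgfra (5.07 ± 1.11 CPM in SM positive, 3.55 ± 0.253 in SM negative) and Pdgfrb (0.332 ± 0.0707 CPM in SM positive, 0.0912 ± 0.0385 in SM negative) were the highest of these by mean CPM, while Lum, Dpt, Thy1 and Col3a1 had no count. The Pdgfrb values rest on 11, 6 and 6 counts in SM positive and 3, 2 and 1 counts in SM negative libraries, and the gene did not pass the filter on low counts. The epithelial and the fibroblast sums did not overlap between the fractions. Pdgfra alone made up most of the fibroblast sum, with 4.61, 4.25 and 6.33 CPM in SM positive replicates 1, 2 and 3. In SM negative replicates 1, 2 and 3 it had 3.82, 3.53 and 3.32 CPM. The fibroblast gap therefore describes mainly this gene and not the 10 markers as a set. The epithelial gap was narrow, from 3674 CPM (highest SM positive sum) to 3679 CPM (lowest SM negative sum). Among all genes tested, 10.4% lay apart with SM positive higher and 9.47% with SM positive lower. No epithelial or fibroblast marker passed edgeR's test of the fractions at an adjusted p of 0.05. When the fit also held the replicate number, 2 of the 8 tested epithelial markers passed as lower. Pdgfra, the only fibroblast marker tested, then passed as higher. That fit called 8.52% of all genes tested higher and 5.6% lower. In the fit without the replicate number, 3 of the 8 tested epithelial markers had a positive log2 change. Endothelial markers (7) summed to at most 6.12 CPM in SM positive libraries and 6.57 in SM negative ones. Egfl7 made up most of this, with means of 5.57 CPM in SM positive libraries and 5.34 in SM negative ones, while Pecam1 averaged 0.118 CPM in SM positive libraries and 0.286 in SM negative ones. Immune markers (10), led by Csf1r and Lyz2, summed to at most 0.76 CPM in SM positive libraries and 1.07 in SM negative ones. Platelet markers (5), led by Ppbp and Gp1ba, summed to at most 2.78 CPM in SM positive libraries and 2.99 in SM negative ones. Glb1, the gene of the enzyme whose activity defined the sort, stood at 43.2 ± 2.18 CPM in SM positive cells, against 40.8 ± 2.65 CPM in SM negative cells (edgeR adjusted p = 0.682). The part of the marker signals in the differences described here was not tested.

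Most of the family was higher in SM positive cells. Tgfb2, Tgfb3, Tgfbr2, Ltbp2 and Ltbp3 passed an adjusted p of 0.05 in edgeR's quasi-likelihood test across all genes, by 1.22-fold to 1.51-fold. No member was lower past it, and this fit did not pair the libraries. At an unadjusted p under 0.05, 8 members were higher and none lower. DESeq2 called 6 higher and none lower, where it called 2.38% of all genes tested in either direction. At an unadjusted p under 0.05 in edgeR, 1129 of all genes tested were higher and 784 lower. Over all genes tested, edgeR without a block called 1.35% in either direction, with 1.14% higher and 0.214% lower. The members were proposed with this contrast known, so the count is a description. A fit that also took the replicate number as a block added Tgfbr1, Tgfbr3 and Ltbp1, giving 8 members higher and none lower. Of all genes tested, that fit called 14.1%, with 8.52% higher and 5.6% lower. Tgfb1 and Ltbp4 passed in neither fit. The median log2 change over the 10 members was 0.31, against -0.00085 over all genes tested. In bulk RNA, a change in the share of expressing cells and a change in RNA per cell cannot be told apart.

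**Figure D1:**
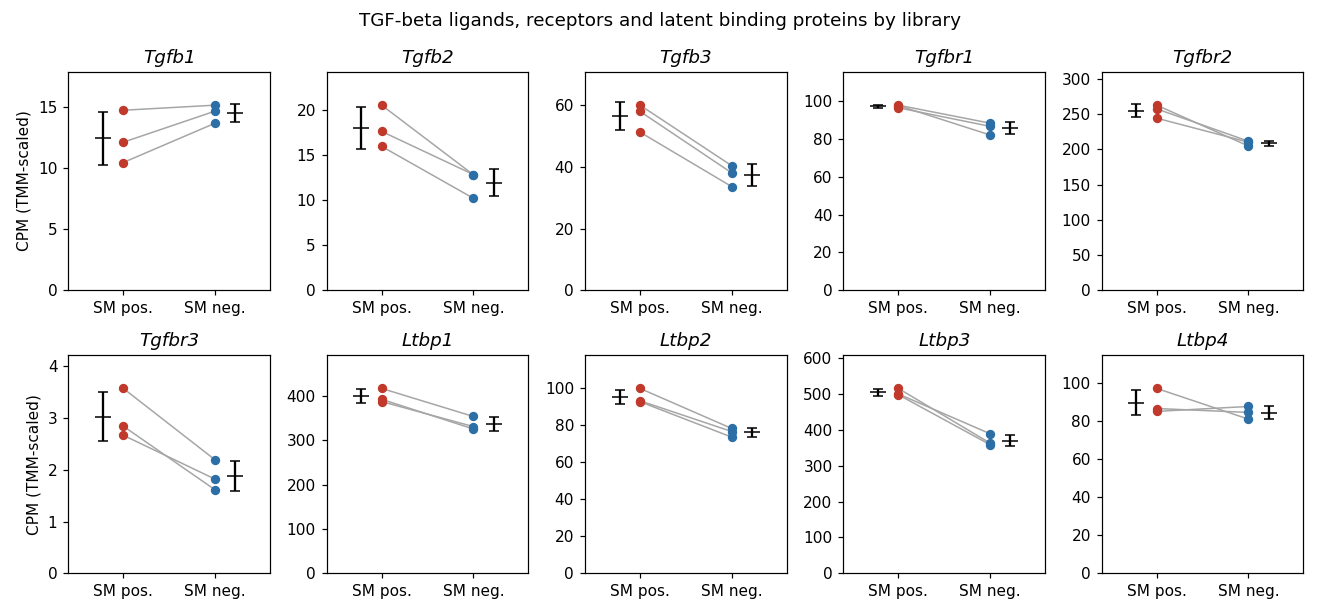
Level of each member (CPM, TMM-scaled, axis from 0) in the 3 SM positive libraries (left, red) and the 3 SM negative libraries (right, blue). Grey lines join libraries with the same replicate number, and black marks are mean ± SD. The fractions do not overlap for 8 members, while Tgfb1 and Ltbp4 overlap.

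The promoters of the called members that have a window are shown with that of Tgfb1, which was not called. Windows of Tgfbr1, Ltbp1 and Ltbp4, also not called without the block, are not shown. The sequences printed are therefore no comparison of members with and without a call. RefSeq windows (GRCm38.p6) were found for 8 of the 10 members, not for Tgfb3 or Tgfbr3. Each sequence gives the 250 bases before the annotated start, 5′ to 3′ on the gene's strand, and capitals mark the SMAD box, CAGAC on either strand.
Tgfb2 (chr1:186705990-186706239, minus strand): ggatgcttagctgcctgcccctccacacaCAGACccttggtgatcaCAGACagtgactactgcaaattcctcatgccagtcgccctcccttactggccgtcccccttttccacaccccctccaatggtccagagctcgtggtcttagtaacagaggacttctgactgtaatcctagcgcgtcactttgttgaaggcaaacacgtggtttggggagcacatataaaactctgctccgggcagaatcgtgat
Tgfbr2 (chr9:116175364-116175613, minus strand): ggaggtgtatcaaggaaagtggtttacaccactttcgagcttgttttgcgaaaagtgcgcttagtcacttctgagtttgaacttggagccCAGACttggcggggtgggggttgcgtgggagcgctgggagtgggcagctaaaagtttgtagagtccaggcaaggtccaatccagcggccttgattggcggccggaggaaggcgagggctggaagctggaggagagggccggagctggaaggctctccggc
Ltbp2 (chr12:84876492-84876741, minus strand): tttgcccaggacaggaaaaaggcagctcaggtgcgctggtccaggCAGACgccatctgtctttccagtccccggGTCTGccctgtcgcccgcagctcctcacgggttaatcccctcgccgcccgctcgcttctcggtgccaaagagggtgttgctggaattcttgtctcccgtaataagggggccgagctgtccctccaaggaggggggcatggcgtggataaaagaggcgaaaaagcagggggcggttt
Ltbp3 (chr19:5740650-5740899, plus strand): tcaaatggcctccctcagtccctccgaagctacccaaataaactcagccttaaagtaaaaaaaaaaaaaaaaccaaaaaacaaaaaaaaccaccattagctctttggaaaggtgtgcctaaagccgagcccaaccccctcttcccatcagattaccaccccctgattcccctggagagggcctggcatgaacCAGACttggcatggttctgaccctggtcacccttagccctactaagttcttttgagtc
Tgfb1 (chr7:25686752-25687001, plus strand): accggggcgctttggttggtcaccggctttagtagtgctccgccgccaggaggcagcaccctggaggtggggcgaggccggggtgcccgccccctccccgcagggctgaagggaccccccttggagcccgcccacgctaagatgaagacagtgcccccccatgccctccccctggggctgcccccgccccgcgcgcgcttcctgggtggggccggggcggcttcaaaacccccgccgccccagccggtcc

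The SMAD box was present in at least 1 window of 6 of the 8 members, namely Tgfb2, Tgfbr1, Tgfbr2, Ltbp1, Ltbp2 and Ltbp3, and in no window of Tgfb1 or Ltbp4. Of the members with the box, Tgfbr1 and Ltbp1 were not called without the block. By window, it was present in 7 of the members' 12 windows, against 42.2% of 32851 promoter windows of the same length. Windows of the same gene can overlap, as those of Ltbp4 do. For Tgfbr1 the SMAD box was found in the second annotated window and not in the first. The AP-1 site TGANTCA, searched on both strands, was found in none of the 12 windows of the members and in 6.75% of all windows. The palindromic SMAD element GTCTAGAC was found in none of the 12 and in 0.167% of all windows. The cyclic AMP element TGACGTCA was found in the first Ltbp1 window, beside the SMAD box, and in 1.55% of all windows. The GC box GGGCGG was found in 6 of the 12 windows, of Tgfb1, Tgfbr1, Ltbp2 and Ltbp4, and in 32.7% of all windows. GC content was 75.2% in the Tgfb1 window and 47.2% in the Ltbp3 window, with 53.6% for Tgfb2, 58.4% for Tgfbr2 and 61.6% for Ltbp2. A match of letters is a description of these windows and not evidence of a bound site.

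Among the ligands, Tgfb3 and Tgfb2 rose in SM positive cells and Tgfb1 was not called. Tgfb3 (ENSMUSG00000021253.7, chromosome 12, 86056745 to 86079041, minus strand) encodes TGF-β3, whose loss in mice is known to cause cleft palate. It stood at 58.0, 51.3 and 60.03 CPM in SM positive replicates 1, 2 and 3, against 38.0, 33.6 and 40.4 CPM in SM negative replicates 1, 2 and 3. Every SM positive library lay above every SM negative one, and the 3 same-number pairs differed by 0.61, 0.61 and 0.57 on the log2 scale. The fit gave a log2 change of 0.59 ± 0.0859 (SE; edgeR adjusted p = 0.0119), which is 1.51-fold. The call ended without SM positive replicate 3 (adjusted p = 0.0528) and without SM negative replicate 2 (0.0588), in a range of 0.0138 to 0.0588 over the 6 libraries left out in turn. The edgeR fit with the replicate block gave an adjusted p of 5.68e-08, and the call held with each pair left out (up to 6.54e-05).

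Tgfb3 has opposite-strand neighbours. Ttll5 shares no exon base with it and had 27.2 ± 1.49 CPM in SM positive cells, against 23.2 ± 1.56 CPM in SM negative cells, with no overlap between the fractions (edgeR adjusted p = 0.248, and 0.0207 with the replicate block). Exons of the opposite-strand gene Gm37804 share 163 bases with those of Tgfb3, and its counts were 12, 14 and 12 in SM positive and 2, 4 and 5 in SM negative libraries, while Tgfb3 had 1098 to 1546 counts in SM positive libraries and 629 to 956 in SM negative ones. Gm48008, which shares 257 bases, had no count. The sources used here do not say whether counting used strand, so the reads of antisense partners may be mixed, and their part in the Tgfb3 difference was not tested.

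Tgfb2 (ENSMUSG00000039239.14, chromosome 1, 186622792 to 186705989, minus strand) encodes TGF-β2, the isoform that relies on betaglycan for high-affinity binding to the type II receptor. Its levels were 15.9, 17.6 and 20.5 CPM in SM positive replicates 1, 2 and 3, against 10.2, 12.8 and 12.8 CPM in SM negative replicates 1, 2 and 3. Every SM positive library lay above every SM negative one, and the 3 same-number pairs differed by 0.65, 0.46 and 0.68 on the log2 scale. The log2 change was 0.60 ± 0.125 (SE; edgeR adjusted p = 0.0485), close to the threshold. It was called without SM positive replicate 1 (0.0326) and in none of the other fits that left out 1 library (0.105 to 0.167). With the replicate block its adjusted p was 2.61e-05. The opposite-strand gene Gm29491 shares 124 exon bases with it and had 0 or 1 counts per library.

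Tgfb1 (ENSMUSG00000002603.15, chromosome 7, 25687002 to 25705077, plus strand) encodes TGF-β1, the isoform most often studied in tumours and immune cells. It stood at 14.7, 12.1 and 10.4 CPM in SM positive replicates 1, 2 and 3, against 15.1, 14.6 and 13.6 CPM in SM negative replicates 1, 2 and 3. The fractions overlapped, since SM positive replicate 1 lay among the SM negative libraries, although each SM positive library lay below its same-number partner. The log2 change was -0.21 ± 0.124 (SE; edgeR adjusted p = 0.503, and 0.0948 with the replicate block). Its direction opposed that of Tgfb2 and Tgfb3 in each of the 16 other settings tried, and it was called in none of them.

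Per kilobase of annotated exon, Tgfb3 was the most abundant ligand in every library. It held 74.9% ± 1.21 of the summed per-length level of the ligands in SM positive and 69.0% ± 2.64 in SM negative cells (SD, n = 3 each). The Tgfb1 share was 11.1% ± 2.02 in SM positive cells, against 18.03% ± 1.73 in SM negative cells, and it was lower in every SM positive library (8.86% to 12.8%) than in any SM negative one (16.1% to 19.3%). The Tgfb2 share was 13.999% ± 1.68 in SM positive cells, against 12.9% ± 1.87 in SM negative cells, and its libraries overlapped. These shares depend on the length assigned to Tgfb1: with the longest annotated transcript in place of all exons, the Tgfb1 share was 19.3% in SM positive cells, against 29.7% in SM negative cells, and that of Tgfb3 was 66.6% in SM positive cells, against 58.0% in SM negative cells. The summed level of the 3 ligands was 22.3 ± 1.46 CPM per kilobase in SM positive cells, against 15.97 ± 0.902 in SM negative cells.

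Of the receptor genes, Tgfbr2 rose in SM positive cells without the block and all 3 passed edgeR's test with it. DESeq2 with the block called Tgfbr2 but not Tgfbr1 (adjusted p = 0.0961), and gave no adjusted p for Tgfbr3. Tgfbr2 (ENSMUSG00000032440.13, chromosome 9, 116084293 to 116175360, minus strand) encodes the type II receptor, the kinase that binds the ligand first. It had 263, 244.5 and 257.7 CPM in SM positive replicates 1, 2 and 3, against 204.9, 210.4 and 211.8 CPM in SM negative replicates 1, 2 and 3. The gap between the fractions exceeded their spread, with 255.1 ± 9.53 CPM in SM positive cells, against 209 ± 3.63 CPM in SM negative cells. The log2 change was 0.29 ± 0.0518 (SE; edgeR adjusted p = 0.0282). The call was kept without SM positive replicate 2 (0.0452) and ended with any other single library left out (0.0783 to 0.118). Its call in the edgeR fit with the replicate block (adjusted p = 6.24e-05) held with each pair left out (up to 0.0139).

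Tgfbr1 (ENSMUSG00000007613.15, chromosome 4, 47353222 to 47414931, plus strand), the type I receptor kinase that phosphorylates SMAD2 and SMAD3, differed by less. Its levels were 97.96, 96.6 and 97.8 CPM in SM positive replicates 1, 2 and 3, against 88.4, 86.8 and 82.2 CPM in SM negative replicates 1, 2 and 3. The fractions did not overlap, but the log2 change of 0.18 ± 0.0539 (SE) was not called (edgeR adjusted p = 0.165). With the replicate block it was called (adjusted p = 0.00623), though not when pair 1 or pair 3 was also left out (up to 0.0928).

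Tgfbr3 (ENSMUSG00000029287.14, chromosome 5, 107106570 to 107289629, minus strand) encodes betaglycan, the co-receptor that presents ligand to the type II receptor. It was the member with the fewest counts, with 95, 57 and 56 counts in SM positive and 55, 34 and 34 counts in SM negative replicates 1, 2 and 3. In CPM these are 3.56, 2.66 and 2.84 in SM positive and 2.19, 1.82 and 1.61 in SM negative cells. The fractions did not overlap, and its log2 change of 0.69 ± 0.203 (SE) was the greatest of the members in size, with the widest error (edgeR adjusted p = 0.166). With the replicate block it was called (adjusted p = 0.0168), though not when pair 1 or pair 3 was also left out (up to 0.15). Of its 31-base stretches, 4.13% also occur in the overlapping gene Gm43422, which had 0 or 1 counts per library.

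Among the latent binding proteins, Ltbp3 and Ltbp2 rose in SM positive cells, and Ltbp3 was the one member called in all 16 other settings tried. Ltbp3 (ENSMUSG00000024940.10, chromosome 19, 5740904 to 5758532, plus strand) encodes a matrix protein that binds the propeptides of the TGF-β isoforms and is needed for normal bone and tooth growth. It stood at 515.1, 497.5 and 499.7 CPM in SM positive replicates 1, 2 and 3, against 362.7, 358.4 and 388.8 CPM in SM negative replicates 1, 2 and 3. The fractions were far apart relative to their spread, with 504.1 ± 9.59 CPM in SM positive cells, against 370.0 ± 16.5 CPM in SM negative cells. The log2 change was 0.45 ± 0.0527 (SE; edgeR adjusted p = 0.00489), which is 1.36-fold. With each library left out in turn, the adjusted p was 0.00986 to 0.0437, and in the edgeR fit with the replicate block it was 2.86e-07.

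Ltbp2 (ENSMUSG00000002020.15, chromosome 12, 84783212 to 84876532, minus strand) encodes a relative that is known not to bind latent TGF-β and instead associates with fibrillin microfibrils. It had 100.03, 93.3 and 92.9 CPM in SM positive replicates 1, 2 and 3, against 78.4, 76.7 and 73.7 CPM in SM negative replicates 1, 2 and 3. The fractions were separated, with a log2 change of 0.32 ± 0.0572 (SE; edgeR adjusted p = 0.0267). Leaving out any 1 library ended the call (0.0598 to 0.128), while the log2 change stayed between 0.29 and 0.34. In the edgeR fit with the replicate block its adjusted p was 2.09e-05, and it stayed called with each pair left out (up to 0.00681). Its opposite-strand neighbour D030025P21Rik shares 764 exon bases and stood at 2.07 ± 0.564 CPM in SM positive cells, against 2.19 ± 0.609 CPM in SM negative cells.

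Ltbp1 (ENSMUSG00000001870.15, chromosome 17, 75005568 to 75392512, plus strand) encodes the founding member of the family, which binds the propeptides of all TGF-β isoforms. Its levels were 387.5, 392.7 and 417.2 CPM in SM positive replicates 1, 2 and 3, against 331.1, 325.7 and 354 CPM in SM negative replicates 1, 2 and 3. The fractions did not overlap, and the log2 change of 0.24 ± 0.0556 (SE) fell short of the threshold (edgeR adjusted p = 0.064). With the replicate block it was called (adjusted p = 0.00019), and DESeq2 without a block called it as well (adjusted p = 0.0106).

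Ltbp4 (ENSMUSG00000040488.17, chromosome 7, 27305136 to 27337692, minus strand) encodes a binding protein that pairs mainly with TGF-β1 and takes part in elastic fibre assembly. It stood at 86.4, 97.0 and 84.9 CPM in SM positive replicates 1, 2 and 3, against 84.4, 80.9 and 87.5 CPM in SM negative replicates 1, 2 and 3. The fractions overlapped, and SM positive replicate 2 alone lay above all SM negative libraries. The log2 change was 0.09 ± 0.0659 (SE; edgeR adjusted p = 0.637, and 0.336 with the replicate block).

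**Figure D2:**
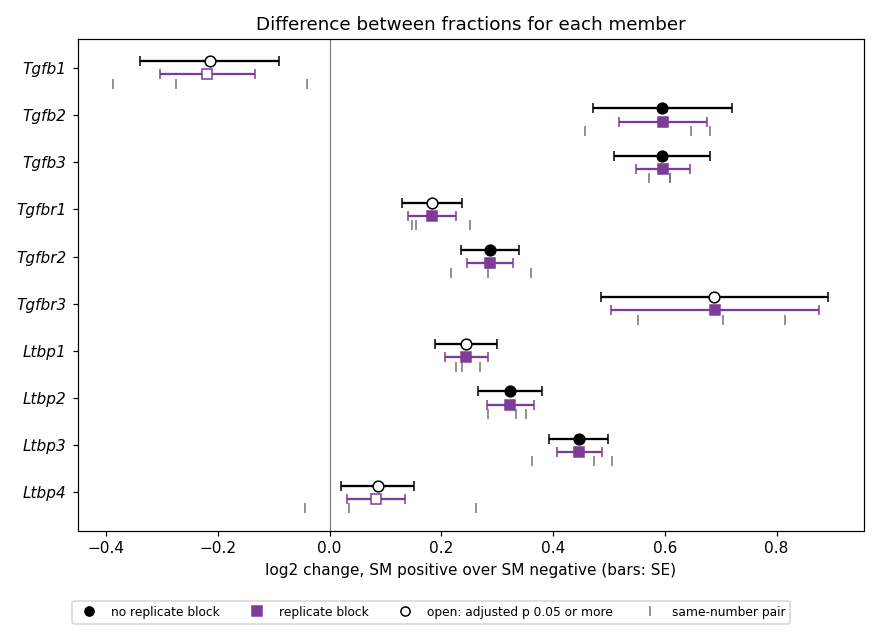
Log2 change, SM positive over SM negative, with SE, for each member without (circles) and with (squares) the replicate block; filled symbols have an adjusted p under 0.05 and grey ticks are the 3 same-number pairs. The block leaves the changes nearly where they were and narrows the errors, so Tgfbr1, Tgfbr3 and Ltbp1 are filled only as squares.

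Across the family, 8 members were higher in SM positive cells in all 3 same-number pairs and 1, Tgfb1, was lower in all 3. Over all genes tested, 23.9% were higher in all 3 pairs and 22.7% were lower. The fractions did not overlap for 8 members, each higher in SM positive cells, where 10.4% of all genes tested were so and 9.47% lay apart in the other direction. The called ligands rose by 1.51-fold each, the called receptor by 1.22-fold, and the called binding proteins by 1.25-fold and 1.36-fold. Whether members differed from each other in their change was not tested.

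Ranked by CPM per kilobase of exon, Ltbp3 was the most abundant member in both fractions, at 55.6 ± 1.06 in SM positive and 40.8 ± 1.81 in SM negative cells. Ltbp1 followed with 37.3 ± 1.48 in SM positive and 31.5 ± 1.40 in SM negative cells, then Tgfbr2 with 31.2 ± 1.16 in SM positive and 25.5 ± 0.443 in SM negative cells. Within either fraction, the libraries of these 3 genes did not overlap. Tgfb3, Tgfbr1 and Ltbp4 came next. In SM positive cells they spanned 15.2 to 17.7 for Tgfb3, 14.8 to 15.0 for Tgfbr1 and 13.1 to 15.0 for Ltbp4, so Tgfbr1 and Ltbp4 overlapped. In SM negative cells the spans were 9.93 to 11.9 for Tgfb3, 12.6 to 13.5 for Tgfbr1 and 12.5 to 13.5 for Ltbp4, so Tgfb3 lay below both. Ltbp2 was lower, at 11.7 ± 0.490 in SM positive and 9.32 ± 0.289 in SM negative cells. Tgfb2 stood at 3.11 ± 0.399 in SM positive and 2.06 ± 0.261 in SM negative cells, and Tgfb1 at 2.46 ± 0.427 in SM positive and 2.87 ± 0.149 in SM negative cells. Their libraries overlapped in SM positive cells, and Tgfb1 lay above Tgfb2 in SM negative cells. With the longest transcript as the length, Tgfb1 exceeded Tgfb2 in every library and the order of Tgfb3, Tgfbr1 and Ltbp4 changed. By that length Ltbp2 averaged 11.3 ± 0.350 in SM negative cells, against 11.04 ± 1.02 for Tgfb3, and their libraries overlapped. In SM positive cells Ltbp2 stayed below Tgfb3, at 14.1 ± 0.592 against 16.7 ± 1.35. Tgfbr3 was the lowest, at 0.462 ± 0.0731 in SM positive and 0.286 ± 0.0447 in SM negative cells. Summed per kilobase, the latent binding proteins stood at 118.4 ± 0.361 in SM positive and 94.7 ± 3.45 in SM negative cells, and the receptors at 46.5 ± 1.34 in SM positive and 38.9 ± 0.283 in SM negative cells.

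**Figure D3:**
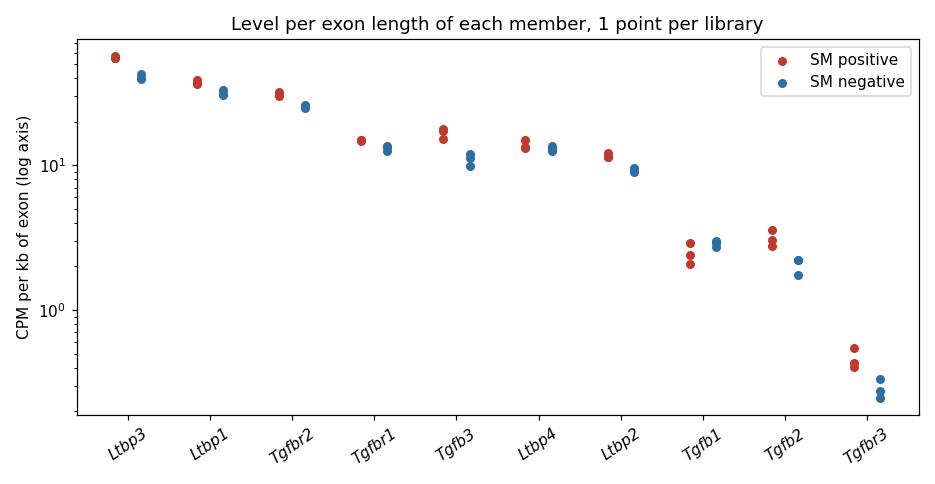
Level of each member in CPM per kilobase of annotated exon (log axis), with 1 point per library, SM positive left (red) and SM negative right (blue). Ltbp3, Ltbp1 and Tgfbr2 lie above 25 in every library, and Tgfbr3 lies under 0.6 in every library.

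Genes that store or release latent TGF-β were followed in a list of 21, of which 16 were tested. Of these, Thbs1 rose and none fell without the block, and 7 rose and 1 fell with it, with a median log2 change of 0.10. At an unadjusted p under 0.05, 5 were higher and none lower, beside 1129 higher and 784 lower of the 14038 genes tested. Over all genes tested, 1.14% were called higher and 0.214% lower without the block, and 8.52% higher and 5.6% lower with it. Thbs1, the adhesive glycoprotein thrombospondin 1, which activates latent TGF-β, stood at 1745 ± 240.1 CPM in SM positive cells, against 1052 ± 136 CPM in SM negative cells (log2 change 0.73 ± 0.117 SE, edgeR adjusted p = 0.0281). The call ended without SM negative replicate 1 or 2 (adjusted p up to 0.128). With the block, Itgb5, the integrin β5 chain that pairs with αv, rose (249.1 ± 28.1 CPM in SM positive, 186.9 ± 16.7 in SM negative; adjusted p = 2.72e-06). So did Adamts1, a secreted metalloprotease (353 ± 87.0 CPM in SM positive, 294.7 ± 65.5 in SM negative; adjusted p = 0.000181). The gelatinase gene Mmp9 fell (56.8 ± 12.1 CPM in SM positive, 63.3 ± 7.24 in SM negative; adjusted p = 0.0446 with the block).

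Of 13 listed co-receptors and receptor antagonists, 12 were matched in the table and 9 were tested, and Nrp1 rose and none fell without the block, with a median log2 change of 0.04. At an unadjusted p under 0.05, 2 were higher and 1 lower, beside 1129 higher and 784 lower of the 14038 genes tested. Without the block, 1.14% of all genes tested were called higher and 0.214% lower. Nrp1, a co-receptor that also binds TGF-β, stood at 14.3 ± 3.04 CPM in SM positive cells, against 8.87 ± 0.474 CPM in SM negative cells (log2 change 0.70 ± 0.145 SE, edgeR adjusted p = 0.0461), and leaving out any 1 library ended the call (0.052 to 0.163). With the block, 3 rose and 1 fell, where that fit called 8.52% of all genes tested higher and 5.6% lower. The endocytic adaptor gene Dab2 rose (29.1 ± 5.71 CPM in SM positive, 25.4 ± 2.76 in SM negative; adjusted p = 0.037), as did the co-receptor gene endoglin, Eng (75.1 ± 2.93 CPM in SM positive, 68.5 ± 1.88 in SM negative; adjusted p = 0.0426). Cd109, a membrane protein that binds TGF-β and restrains its signalling, fell (21.8 ± 1.34 CPM in SM positive, 28.1 ± 1.71 in SM negative; adjusted p = 0.000315 with the block, 0.0636 without). The pseudoreceptor gene Bambi had no count in any library.

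All 24 SMAD and signal transducer genes were tested, with a median log2 change of 0.04. By edgeR without the block 0 passed, with 2 higher and 1 lower at an unadjusted p under 0.05, and DESeq2 called 0. Over all 14038 genes tested, 1129 were higher and 784 lower at that unadjusted p. With the block 2 rose, a share close to the 8.52% of all genes called higher in that fit. Smad3, which carries the signal of the type I receptor, stood at 101.4 ± 11.5 CPM in SM positive cells, against 87.5 ± 5.61 CPM in SM negative cells (adjusted p = 0.00227 with the block, 0.288 without). Wwp1, a ubiquitin ligase of the pathway, averaged 46.6 ± 1.61 CPM in SM positive and 40.9 ± 1.29 in SM negative cells (adjusted p = 0.0198 with the block).

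Genes that TGF-β is known to induce were followed in a list of 40, of which 31 were tested. Of these, 2 rose and none fell without the block, and 11 rose and 3 fell with it, and the median log2 change was 0.12. At an unadjusted p under 0.05, 5 were higher and 2 lower, beside 1129 higher and 784 lower of the 14038 genes tested. Over all genes tested, 1.14% were called higher and 0.214% lower without the block. With the block the shares were 8.52% higher and 5.6% lower. Lbh, a transcriptional cofactor also known as a WNT target, stood at 42.1 ± 1.76 CPM in SM positive cells, against 25.1 ± 1.32 CPM in SM negative cells (log2 change 0.75 ± 0.073 SE, edgeR adjusted p = 0.002), and it was called with each library left out. Sphk1, which makes sphingosine 1-phosphate, stood at 57.4 ± 5.90 CPM in SM positive cells, against 42.1 ± 3.70 CPM in SM negative cells (log2 change 0.45 ± 0.0909 SE, edgeR adjusted p = 0.0435), and it kept the call only without SM positive replicate 2 (up to 0.162 otherwise). With the block, the small GTPase gene Rhob rose (102.2 ± 16.3 CPM in SM positive, 75.9 ± 12.03 in SM negative; adjusted p = 3.21e-06). In the same fit 3 fell: Klf10, an early response gene of TGF-β (37.9 ± 4.81 CPM in SM positive, 43.4 ± 5.43 in SM negative; adjusted p = 0.0125), the AP-1 gene Junb (159.8 ± 12.5 CPM in SM positive, 182 ± 14.6 in SM negative; adjusted p = 0.0279) and the matrix gene Tnc (3.55 ± 0.0919 CPM in SM positive, 4.95 ± 0.78 in SM negative; adjusted p = 0.0393).

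Of 14 genes that TGF-β is known to repress, 12 were tested, with a median log2 change of -0.01. By edgeR without the block 0 passed, with 2 higher and 2 lower at an unadjusted p under 0.05, and DESeq2 called 1, which was higher. Over all 14038 genes tested, 1129 were higher and 784 lower at that unadjusted p, and DESeq2 called 2.38%. With the block, Id2, an inhibitor of basic helix-loop-helix factors, rose (40.7 ± 9.90 CPM in SM positive, 23.99 ± 5.36 in SM negative; log2 change 0.76 ± 0.0552 SE, adjusted p = 1.43e-08). Myc (251.4 ± 15.0 CPM in SM positive, 282.9 ± 26.3 in SM negative; adjusted p = 0.00886) and the epithelial adhesion gene Epcam (135.6 ± 6.21 CPM in SM positive, 151.1 ± 6.01 in SM negative; adjusted p = 0.0147) fell in that fit. These block calls, 1 higher and 2 lower of 12, stand beside 8.52% higher and 5.6% lower over all genes in that fit. Among the pathway genes called with the block only, Itgb5, Adamts1, Cd109, Rhob and Id2 kept that call with each pair left out in turn. Smad3 lost it without pair 1, and Eng and Tnc lost it with any pair left out. Dab2, Wwp1, Klf10 and Epcam kept it only without pair 2, and Mmp9, Junb and Myc only without pair 1.

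**Figure D4:**
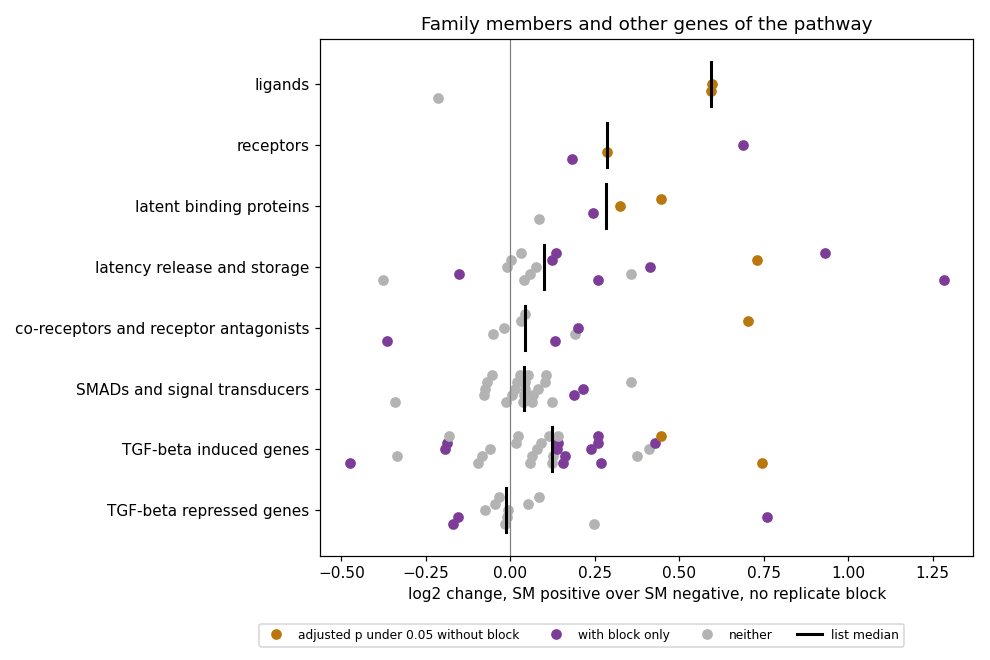
Log2 change, SM positive over SM negative, of every tested gene in the family classes and the pathway lists, without the replicate block. Orange points passed without the block, purple points only with it, grey points in neither fit, and black bars are medians, which lie at 0.59, 0.29 and 0.28 for ligands, receptors and latent binding proteins and between -0.01 and 0.12 for the other lists.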

How the data were processed

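The expected counts per gene of 6 libraries were used as the authors deposited them. The submitters' processing notes name RSEM 1.3.1, STAR 2.6.0a and FastQC 0.11.5 and the GRCm38 build, without roles or order. Per the labels' protocols, a stranded mRNA kit was used. Neither the annotation release nor the strand setting is stated in the sources used here. Of 53465 identifiers, 99.8% matched GENCODE M21 (GRCm38), which gave symbols, positions and exon lengths.

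Expected counts were rounded (13.5% to 14.4% of a library's values were not whole), filtered with filterByExpr (14038 genes kept) and scaled by TMM. SM positive was compared with SM negative by edgeR 4.0.16's quasi-likelihood test (robust fit, R 4.3.3) and Benjamini-Hochberg adjustment over all genes tested and a threshold of 0.05. This main fit held the fraction alone and did not pair the libraries. Values after ± are SD over 3 libraries unless SE is written. Limits at a count of 0 and counting error cover sampling of reads only, since PCR copies are no separate molecules. No pair of libraries fell within sampling noise of each other (chi-square per gene 6.32 to 18.1). The fits were tested on simulated data.

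The labels do not say that replicates came from separate cultures, so the p-values speak only of the spread among the 6 libraries, possibly technical. Deviations from the fraction means correlated at 0.22, 0.28 and 0.196 between libraries with the same replicate number and at -0.175 to -0.0435 between others. The deviations cancel within each fraction, so the negative values are tied to the positive ones and are no separate evidence of pairing. Only the fits with the replicate block treated libraries with the same number as pairs. The main fit had no block, so its p-values and the fits that left out 1 library ignore this pairing. Alternatives were the replicate block, RLE factors, library totals, 2 other filters, DESeq2 1.42.0 with and without the block, another gene length, and leaving out each library or pair.

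The members and the gene lists were chosen with earlier results of these data known. The named genes are all members, plus, from each list, up to 3 called in each direction with the smallest p in either fit and a mean of at least 1 CPM, the 2 most abundant markers of other cell types, and Glb1. Bambi and the markers with no count are named outside that rule, after their values were seen. A result on 1 neighbouring gene is not reported here.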

Additional observations from a re-analysis of the deposited data

How the results depend on the processing

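The count of genes called was 190 over all genes in the fit reported above, and it was 1982 with the replicate block, 663 with no filter, 334 with DESeq2 and 616 with DESeq2 and the block. It was 25 to 123 with 1 library left out, and with the block it was 705 without pair 1, 1793 without pair 2 and 886 without pair 3. Members called numbered 8 with the replicate block, 1 to 3 with 1 library left out, and 6 to 8 with the block and 1 pair left out, and every one of them was higher. With DESeq2 and the block they numbered 6, without Tgfbr1 and Tgfbr3. The pairing of the libraries by replicate number changed the call of no member other than Tgfbr1, Tgfbr3 and Ltbp1. Tgfb2 was not called with library totals (adjusted p = 0.0532) or with the filter of more than 1 CPM in 3 libraries (0.0514). Ltbp4 changed sign in 1 setting, with a log2 change of -0.0028 with the block and without pair 2.

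Over all genes tested, 14.1% were called with the replicate block, 2.56% with no filter, 2.38% with DESeq2 and 4.39% with DESeq2 and the block. The share was 1.25% with library totals and 1.34% with the stricter filter. It was 0.175% to 0.864% with 1 library left out, and 5.03% to 12.6% with the block and 1 pair left out. Of the latency genes, 8 were called with the replicate block, 2 with no filter, 2 with DESeq2, 3 with DESeq2 and the block, 0 to 2 with 1 library left out, and 3 to 5 with the block and 1 pair left out. Of the co-receptors, the counts in the same order were 4, 2, 2, 2, 0 and 2 to 3, and 0 with library totals or with the stricter filter. Of the SMADs and transducers, 2 were called with the block, 1 with no filter, 1 with DESeq2 and the block, 0 with 1 library left out, and 0 to 3 with the block and 1 pair left out. Of the induced genes, 14 were called with the block, 1 with library totals, 5 with no filter, 4 with DESeq2, 8 with DESeq2 and the block, 1 to 2 with 1 library left out, and 8 to 11 with the block and 1 pair left out. Of the repressed genes, 3 were called with the block, 1 with DESeq2, 2 with DESeq2 and the block, 0 with 1 library left out, and 1 to 2 with the block and 1 pair left out. Leaving out a library leaves fewer samples, and the cause of the other shifts was not tested. No scaling moved the median log2 change of all genes by over 0.1. Among the members, Tgfbr3 had the fewest counts, 34 to 95 per library.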
